A study of Micropterus salmoides with 45 samples.

Results

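Liver small RNA of largemouth bass was compared between fish held for 8 h in severe hypoxia and control fish sampled at the same time. The comparison took the 3 libraries labelled SHG_8h and the 3 labelled CG_8h, 6 of the 45 libraries of the series, and all 266 listed mature miRNAs (139 from the 5p arm and 127 from the 3p arm of their hairpins). Severe hypoxia was 1.2 ± 0.2 mg/L dissolved oxygen and control water 7.0 ± 0.2 mg/L. A moderate group at 3.0 ± 0.2 mg/L and the times 0, 4, 12 and 24 h make up the other libraries and are used here for reference. All fish were 6 months old, fasted and kept at 20 °C. Oxygen was lowered with nitrogen within 2 h, and 0 h is the moment at which the target was reached. Each oxygen level had 3 tanks of 30 fish, and sampling is described for 5 fish. The labels tie no library to a tank or fish and do not say whether livers were pooled. The p-values therefore measure only the spread between libraries within groups, which may be technical. That spread was estimated over all 15 groups of the series, not from the 6 libraries alone.

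MicroRNAs are short RNAs cut from either arm of a hairpin precursor, and each guides the silencing complex to mRNAs that match its seed. Low oxygen acts on miRNAs through hypoxia-inducible factors, of which miR-210 is the best known target, and through changes in precursor processing. In vertebrate liver miR-122 is the characteristic hepatocyte miRNA, while miR-144 marks the red cell lineage, miR-126 endothelium and miR-142 blood cells.

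Values are rpm, read counts scaled to library size, a unit recognised from the numbers themselves and not named in the labels. Most triples of libraries contain 1 value that equals the mean of the other 2. Such a value was treated as not measured, it is marked "averaged" below, and means and SDs use the measured values. Where all 3 libraries carried 1 identical value it counted as 1 measurement. Measured values were whole multiples of a step particular to each library in 99.1% of 903 cases (within 0.006 rpm), against 3.38% of 444 averaged ones. That step implies 2.02 to 5.57 megareads per control library and 1.57 to 2.23 megareads per severe library. The hepatocyte marker miR-122-5p stood at 11135 ± 193.9 rpm in control and 6186 ± 428 rpm in severe hypoxia (n = 2 each). It was thus present, but was not among the 5 most abundant miRNAs. The liver label itself was not tested, since no other tissue is in the series.

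After 8 h of severe hypoxia a small group of miRNAs rose steeply and a larger group fell moderately. miR-7a-5p, miR-10a-5p, miR-182-5p and miR-196a-5p rose between 9.57-fold and 17.2-fold. miR-126a-3p, both arms of miR-144 and of miR-2188, and miR-204-5p were the strongest falls above 10 rpm. Of 216 miRNAs tested, 51 (23.6%) were called at a Benjamini-Hochberg adjusted p under 0.05 with limma, 12 of them higher (5.56%) and 39 lower (18.1%). At an unadjusted p under 0.05 the count was 71. Over the 216 the median log2 difference was -0.28. The 3 deposited values of the groups did not overlap for 151 of the 216 (69.9%). An averaged value lies between the other 2, so for most miRNAs this sets 2 measured values against 2.

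**Figure D1:**
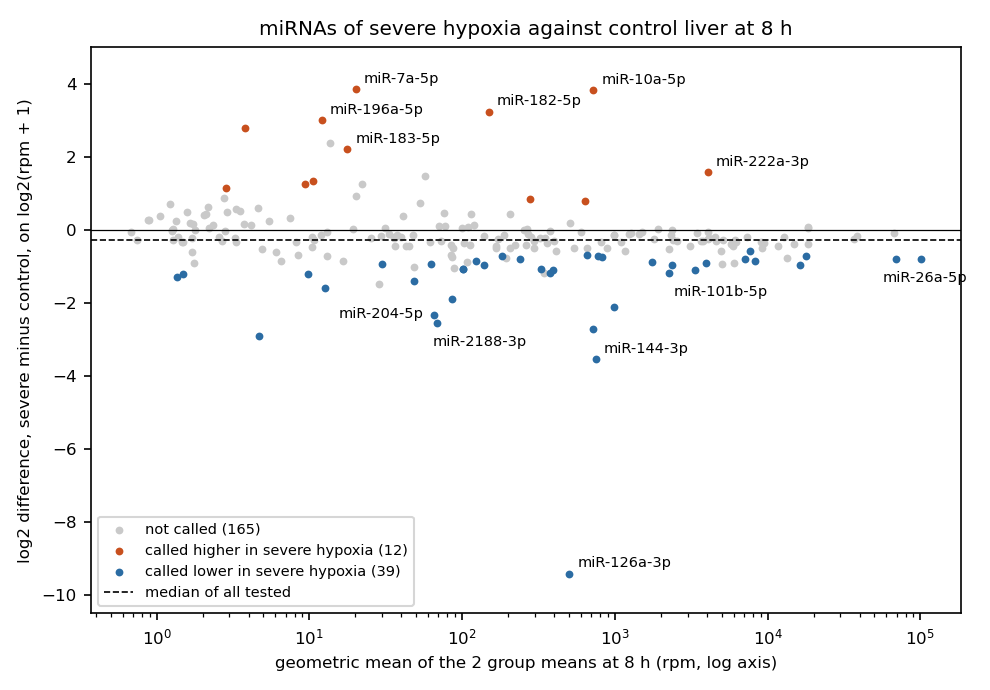
Each point is 1 of the 216 tested miRNAs, with its log2 difference (severe minus control at 8 h, on log2(rpm + 1)) against the geometric mean of the group means in rpm on a log axis. Orange points were called higher (12) and blue points called lower (39); the dashed line is the median of all tested miRNAs, -0.28, and miR-126a-3p lies alone near the bottom at -9.41.

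At 8 h the listed miRNAs held less of each severe library than of any control library. Their summed rpm was 795920 ± 46026 in control and 572340 ± 8758 in severe hypoxia (SD, n = 3, averaged values included; exact two-sided permutation p = 0.1, the smallest that 3 against 3 allows). miR-26a-5p accounted for 26.4% of this drop and miR-181a-5p for 17.6%. When each library was rescaled to its listed total, 32 miRNAs (14.8%) were called, 17 higher (7.87%) and 15 lower (6.94%), with a median of 0.12. With rescaling by the median of ratios 33 (15.3%) were called, 13 higher (6.02%) and 20 lower (9.26%), with a median of 0.00. All 12 rises and 15 of the 39 falls were called on every one of these 3 scales. Those 15 were miR-126a-3p, both arms of miR-144, miR-2188 and miR-30a, miR-204-5p, miR-101b-5p, miR-19d-5p, miR-190a-3p, miR-100-3p, miR-125b-3p, miR-142a-3p and miR-142b-3p. Which scale is nearest to molecules per cell was not tested.

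The steepest rise was that of miR-7a-5p, a miRNA abundant in endocrine pancreas and neurons. Its control libraries 1 to 3 held 4.88, 4.45 and 5.21 rpm, and its severe libraries 75.9, 90.9 and 83.4 rpm (averaged). All severe values lay far above all control values, and the measured ones correspond to 143 and 169 reads against 9 to 29. The log2 difference was 3.85 (SE 0.35, adjusted p = 9.03e-08 with limma), a 17.2-fold difference of the means. Among the 15 groups of the series the severe 8 h group was the highest, and the others ranged from 3.61 to 20.2 rpm.

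The miRNAs encoded within the Hox gene clusters, whose host loci set position along the body axis, held several of the rises. Of 9 listed members 7 were tested, 4 were called higher and 1 lower, with a median log2 difference of 1.15. Over all tested miRNAs the shares were 5.56% higher and 18.1% lower. miR-10a-5p stood at 191 (averaged), 187 and 195.7 rpm in control and at 2451, 2960 and 2705.5 rpm (averaged) in severe hypoxia. The groups were separated by an order of magnitude (log2 3.81, SE 0.67, adjusted p = 0.000215), and in the other 14 groups of the series its mean ranged from 55.4 to 699 rpm. miR-196a-5p held 3.38, 3.84 (averaged) and 4.31 rpm in control against 42.7, 33.1 and 37.9 rpm (averaged) in severe hypoxia. Its severe values were all above its control values (log2 3.00, SE 0.35, adjusted p = 3.59e-06), and moderate hypoxia at 24 h reached a similar mean of 35.3 rpm. The paralog miR-196b-5p was much scarcer, at 1.66 ± 0.311 rpm in control and 4.92 ± 0.601 rpm in severe hypoxia (log2 1.15, adjusted p = 0.0443), which rests on 5 to 10 reads per library. Leaving out any library that measured it ended that call (log2 1.03 to 1.27). Control 2 and severe 2 hold averaged values, so leaving them out removed no value of this miRNA. The log2 difference was then unchanged, with adjusted p = 0.0517 and 0.0554.

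The arms of the miR-10c precursor were called in opposite directions, though their ratio was not (log2 -3.19, adjusted p = 0.112). miR-10c-3p rose from 1.08 rpm, a single measured value of 6 reads, to 15.3, 11.4 and 13.4 rpm (averaged), a log2 difference of 2.77 (SE 0.50, adjusted p = 0.00341). With 1 control value, the spread was taken from the other groups of the fit. Control at 4 h held 10.8 rpm of miR-10c-3p (1 measured value), and the remaining groups averaged 2.64 rpm or less. miR-10c-5p, the abundant arm, fell by 0.57 on the log2 scale, from 9407 ± 1075 to 6322 ± 481 rpm (adjusted p = 0.00871). That fall was not called on either rescaled scale, where it was -0.08 for the listed total, nor without control 3 (-0.45, adjusted p = 0.116) or severe 3 (-0.49, 0.0819). miR-10b-5p stood at 1250, 1436 (averaged) and 1622 rpm in control and 943, 950 (averaged) and 958 rpm in severe hypoxia (log2 -0.58, adjusted p = 0.0781). Since miR-10 paralogs are close in sequence and reads may be shared among them, the 5p arms of miR-10a, b, c and d were also added up, to 11040 rpm in control and 9987 rpm in severe hypoxia. On the deposited scale the family sum was thus lower (ratio 0.905) where miR-10a-5p was higher. The listed total fell by more, from 795920 to 572340 rpm, so as a share of that total the family sum was higher. Neither was tested.

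The miR-183 cluster comprises miR-183, miR-96 and miR-182, which are processed from 1 transcript and are best known from sensory cells and epithelia. miR-182-5p stood at 48.2 (averaged), 48.5 and 47.9 rpm in control and at 433, 490 and 461.5 rpm (averaged) in severe hypoxia. The control libraries were nearly equal and the severe libraries all about an order of magnitude higher (log2 3.23, SE 0.30, adjusted p = 9.03e-08). miR-183-5p rose from 7.82 ± 0.141 to 40.0 ± 1.89 rpm (log2 2.22, SE 0.30, adjusted p = 8.87e-06). Both stood higher in the severe 8 h group than in any of the other 14 groups, whose means reached 81.3 rpm for miR-182-5p and 11.1 rpm for miR-183-5p. miR-96-5p was not tested, because its mean over the series is low. It held 1.30 (averaged), 0.99 and 1.62 rpm in control and 0.90, 1.04 (averaged) and 1.19 rpm in severe hypoxia, so its values overlapped.

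**Figure D2:**
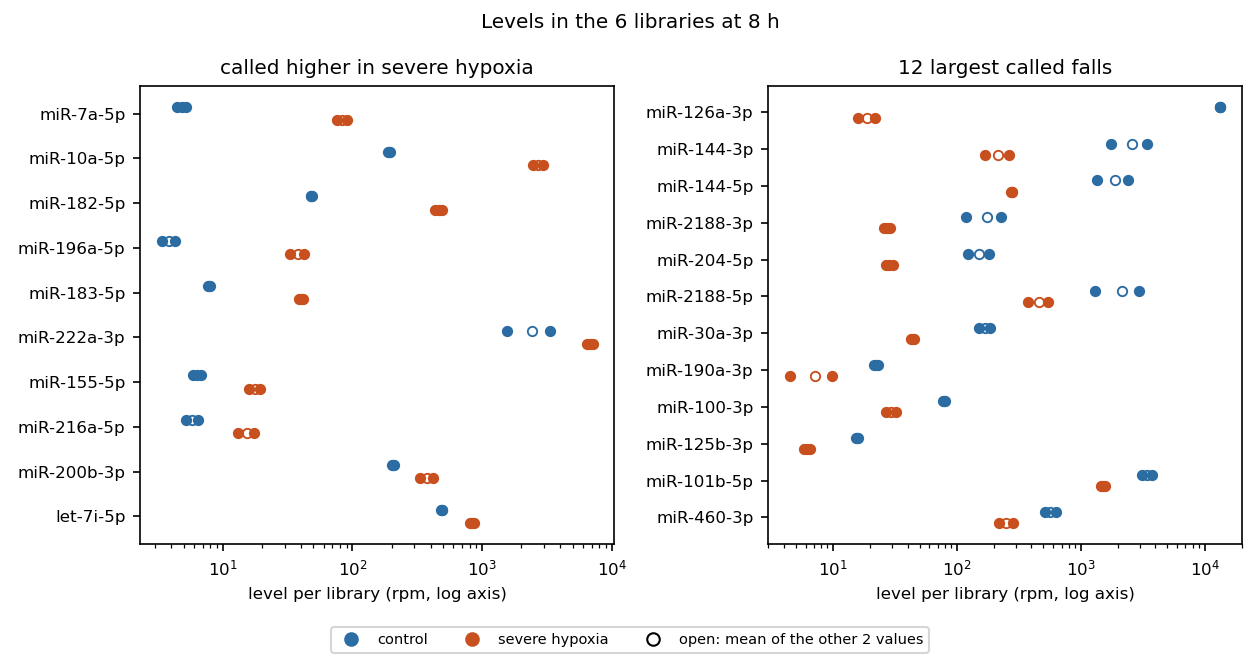
Levels in rpm on a log axis in the 3 control (blue) and 3 severe hypoxia (orange) libraries at 8 h, for miRNAs called higher with at least 10 rpm on average (left) and the 12 largest called falls at that level (right). Open circles are averaged values; in every row shown the blue and orange points are apart, by most for miR-126a-3p, miR-7a-5p and miR-10a-5p and by least for let-7i-5p and miR-200b-3p.

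Other rises were smaller. miR-222a-3p, which acts in endothelium and smooth muscle, held 3304, 1554 and 2429 rpm (averaged) in control and 6761 (averaged), 6451 and 7070 rpm in severe hypoxia. The groups did not overlap, but the control libraries differed among themselves (log2 1.58, SE 0.34, adjusted p = 0.00145). Without control library 2 the log2 difference was 1.03 and the call was lost (adjusted p = 0.0584). In moderate hypoxia at 0 h miR-222a-3p averaged 8323.5 rpm, above the severe 8 h group. Its clustered partner miR-221-3p stood at 2554, 2234 and 2394 rpm (averaged) in control and 2372 (averaged), 2087 and 2657 rpm in severe hypoxia (log2 -0.02, adjusted p = 0.966), with overlapping groups.

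miR-155-5p, induced in activated macrophages and lymphocytes, rose from 6.35 ± 0.580 to 17.6 ± 2.43 rpm (log2 1.34, SE 0.44, adjusted p = 0.0317). miR-216a-5p, a miRNA of exocrine pancreas, rose from 5.82 ± 0.863 to 15.3 ± 3.16 rpm (log2 1.25, SE 0.45, adjusted p = 0.0476). Both rest on 12 to 43 reads per library. Neither was highest in the severe 8 h group. miR-155-5p averaged 24.2 ± 18.4 rpm in severe hypoxia at 0 h. miR-216a-5p averaged 36.3 rpm in severe hypoxia at 4 h, 24.3 rpm in moderate hypoxia at 0 h and 16.1 rpm in control at 0 h. Leaving out 1 library ended the call of miR-155-5p for 4 of the 6 libraries (adjusted p up to 0.144) and that of miR-216a-5p for each of them (up to 0.233). miR-200b-3p, which guards the epithelial state, rose from 205.5 ± 5.02 to 374 ± 57.8 rpm (log2 0.85, adjusted p = 0.0125). let-7i-5p, of the let-7 family that restrains growth genes, rose from 485 ± 4.43 to 837 ± 43.6 rpm (log2 0.78, adjusted p = 0.0395). In moderate hypoxia at 12 h miR-200b-3p averaged 376 rpm and let-7i-5p 795 rpm. The call of miR-200b-3p ended without control 2 (log2 0.83) or severe 2 (0.69). That of let-7i-5p ended without any library that measured it (log2 0.73 to 0.84). Control 3 and severe 1 hold averaged values of let-7i-5p. Without control 3 its log2 difference was unchanged and adjusted p was 0.0538.

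Among the falls, miR-126a-3p stood apart. miR-126 is the main endothelial miRNA and acts on vascular growth signalling. The control libraries all carried the value 13420 rpm, which corresponds to 27112 reads of control library 2 and counts as 1 measurement. In severe hypoxia the libraries held 18.9 (averaged), 15.9 and 21.9 rpm, or 25 and 37 reads where measured. The log2 difference was -9.41 (SE 0.41, adjusted p = 3.09e-11), with the spread of the control value taken from the other groups of the fit. Other readouts of miR-126 did not show a fall of this size. miR-126b-3p, the paralog, stood at 13111, 17892 (averaged) and 22673 rpm in control and 9869, 10125 (averaged) and 10382 rpm in severe hypoxia (log2 -0.77, SE 0.89, adjusted p = 0.593). The opposite arm miR-126a-5p was at 4382 rpm in control, 1 identical value in all 3 libraries, and at 3888 (averaged), 2803 and 4973 rpm in severe hypoxia (log2 -0.23, adjusted p = 0.790). The 3p arms of both paralogs together came to 31312 rpm in control and 10144 rpm in severe hypoxia, a ratio of 0.324. This control sum was the highest of the 15 groups, whose mean sums ranged from 3583 to 31312 rpm. In moderate hypoxia at 8 h the pattern was the other way round, with miR-126a-3p at 8292 rpm and miR-126b-3p at 13.0 rpm. miR-126b-3p was also nearly absent in control at 4, 12 and 24 h, at 12.3, 65.3 and 6.38 rpm. miR-126a-3p was as low in moderate hypoxia at 24 h, at 11.9 rpm (1 measured value). How reads were divided between the paralogs was not tested, and in bulk liver fewer cells of a type and less RNA per cell cannot be told apart.

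miR-144, a miRNA of the red cell lineage, fell in both arms. miR-144-3p held 1770, 3399 and 2584 rpm (averaged) in control and 264, 168 and 216 rpm (averaged) in severe hypoxia. Every severe library was below every control library (log2 -3.53, SE 0.42, adjusted p = 2.81e-06), and among the 15 groups of the series the severe 8 h group was the lowest. miR-144-5p fell from 1890 ± 752 to 277 ± 4.10 rpm (log2 -2.70, SE 0.44, adjusted p = 0.000123). These are the only red cell markers listed, as miR-451 and miR-486 are not among the 266, and their summed level was 3128 to 5820 rpm in control libraries and 443 to 545 rpm in severe libraries. The part of blood content in the result was not tested.

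miR-2188, a miRNA of non-mammalian vertebrates, fell in both arms as well. miR-2188-3p held 119, 229 and 174 rpm (averaged) in control and 25.6, 28.6 and 27.1 rpm (averaged) in severe hypoxia, without overlap (log2 -2.57, SE 0.32, adjusted p = 3.59e-06). miR-2188-5p fell from 2141 ± 1183 to 460 ± 125 rpm (log2 -2.12, SE 0.52, adjusted p = 0.00453), a call lost without control 2 (log2 -1.53, adjusted p = 0.0928) or severe 2 (-1.84, 0.0554). Of 68 precursors with both arms tested, 5 fell in both (miR-144, miR-190a, miR-19d, miR-2188 and miR-30a), 0 rose in both, and only miR-10c had arms called in opposite directions. The ratio of the 5p to the 3p arm within a library, on log2(rpm + 1), was tested for 66 precursors and called for 2 (3.03%), 1 higher (1.52%) and 1 lower (1.52%), with 12 at an unadjusted p under 0.05. These were miR-126a, with a log2 ratio higher by 9.18 in severe hypoxia (adjusted p = 1.51e-08), and miR-19d, with -2.19 (adjusted p = 0.0185). Each rests on 1 library in an arm, control 2 for miR-126a and severe 1 for miR-19d, whose spread was taken from the other groups of the fit. With a pseudocount of 10 only 1 ratio was called. Without control library 1, control library 2 or severe library 1, only 1 ratio was called.

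miR-204-5p, a miRNA of epithelia and of retinal pigment cells, stood at 151 (averaged), 122.3 and 181 rpm in control against 28.5 (averaged), 26.7 and 30.2 rpm in severe hypoxia. The groups did not overlap (log2 -2.35, SE 0.39, adjusted p = 0.000124). The control 8 h group had the highest level of the 15 groups, the next being at 71.6 rpm, and the level in severe hypoxia ranked 10 among them. miR-101b-5p showed a like ordering, with 3126, 3446 (averaged) and 3766 rpm in control and 1445, 1564 and 1505 rpm (averaged) in severe hypoxia (log2 -1.19, SE 0.17, adjusted p = 2.99e-05). For these miRNAs the control at 8 h was high, at log2 1.68 and 0.72 above the mean of control at 4 and 12 h (adjusted p = 0.00720 and 0.00863).

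The miR-30 family, in which miR-30a and miR-30e act on autophagy and cell cycle genes, had 3 of 7 tested members called lower and 0 higher, against 18.1% lower over all tested miRNAs. miR-30a-3p fell from 168 ± 24.6 to 43.9 ± 1.73 rpm (log2 -1.90, SE 0.33) and miR-30a-5p from 576 ± 69.1 to 266 ± 7.31 rpm (log2 -1.11, SE 0.22). miR-30e-5p, with 22712 rpm in control and 11717 rpm in severe hypoxia, fell by 0.96 on the log2 scale (adjusted p = 0.00214) but was not called on the rescaled scales. The family median was -0.36 against -0.28 for all tested miRNAs.

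Among miR-99, miR-100 and miR-125 members, which share conserved clusters with let-7 genes, 3 of 8 were called lower and 0 higher (median -0.59; 18.1% lower over all tested). miR-100-3p fell from 79.1 ± 1.93 to 29.5 ± 4.00 rpm (log2 -1.40) and miR-125b-3p from 15.7 ± 0.453 to 6.18 ± 0.481 rpm (log2 -1.22), both on all 3 scales. miR-99-5p stood at 3929, 4956 (averaged) and 5982 rpm in control and 2244 (averaged), 2200 and 2288 rpm in severe hypoxia (log2 -1.11, adjusted p = 0.00472). Without control library 3 it was at -0.81 and not called (adjusted p = 0.115), nor was it called on a rescaled scale.

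The miR-17 to miR-92 list is named for a cluster linked to cell proliferation, and its members were taken by name and not by genome position. Of 14 tested members 6 were called lower and 0 higher (median -0.52, with 18.1% lower over all tested). After rescaling to the listed total 1 of the 14 was called lower. Among the 6 were all 4 3p arms of miR-19, which together went from 4737 to 2693 rpm, and their log2 differences were -0.73 to -0.88. None of the 4 was called on a rescaled scale. Calls ended when 1 library was left out for miR-19a-3p (control 2, control 3, severe 2 or severe 3, adjusted p = 0.0554 to 0.0701), miR-19c-3p (severe 3, 0.0591) and miR-19d-3p (control 3 or severe 3, 0.116 and 0.0767). miR-19d-5p fell from 16.6 ± 4.16 to 1.31 ± 0.0566 rpm (log2 -2.91, adjusted p = 2.81e-06), which rests on 52 and 76 reads against 3 and 2. miR-92b-5p fell from 477 ± 12.6 to 224.5 ± 12.3 rpm (log2 -1.09, adjusted p = 0.0375), a call lost without control 2, control 3, severe 2 or severe 3 (0.107 to 0.138).

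Both of the most abundant miRNAs fell on the deposited scale. miR-26a-5p, which curbs cell growth and glucose production in mammalian liver, held 111170, 134790 (averaged) and 158400 rpm in control and 72173, 75711 (averaged) and 79250 rpm in severe hypoxia. Its groups did not overlap (log2 -0.81, SE 0.20, adjusted p = 0.00472), and without control library 3 the difference was -0.56 and not called (adjusted p = 0.116). miR-181a-5p, which acts in lymphocyte signalling, held 84028, 91893 (averaged) and 99759 rpm against 54599, 50341 and 52470 rpm (averaged) (log2 -0.80, adjusted p = 0.00735). Its call ended without control 3 (log2 -0.68, adjusted p = 0.0972) or severe 2 (-0.75, 0.0583). Rescaled to the listed total the differences were -0.30 and -0.29 and neither was called. The next most abundant, miR-192-5p, let-7a-5p and miR-22a-3p, were not called (log2 -0.08, -0.16 and -0.26), and the top 5 together made up 47.3% of the listed rpm in control and 46.0% in severe hypoxia.

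Along with miR-181a-5p fell its family member miR-181b-5p, from 9377 ± 1485 to 5394 ± 303 rpm (log2 -0.79, adjusted p = 0.00872), again on the deposited scale alone and not without control 3 (log2 -0.63, adjusted p = 0.116) or severe 1 (-0.73, 0.0619).

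The remaining falls included miR-190a-3p (22.3 ± 1.41 to 7.17 ± 3.84 rpm), which was called on all 3 scales, and miR-460-3p (569 ± 81.7 to 251 ± 44.0 rpm), which was called on the deposited scale alone and not without control 3 or severe 3 (adjusted p = 0.116 and 0.122). miR-142a-3p and miR-142b-3p, markers of blood cells, have identical values in all 6 libraries and are 1 measurement. They fell from 147.9 ± 4.75 to 69.9 ± 12.6 rpm (log2 -1.08, adjusted p = 8.96e-04), and the severe 8 h group was the lowest of the 15. miR-142a-5p stood at 2403, 2457 and 2430 rpm (averaged) in control and 2617, 2235 (averaged) and 1853 rpm in severe hypoxia (log2 -0.14, adjusted p = 0.818), so the more abundant arm did not separate the groups. miR-21-5p, a miRNA raised in inflammation and fibrosis, fell from 23134 ± 3183 to 13886 ± 316 rpm (log2 -0.73, adjusted p = 0.0243), not on the rescaled scales and not without control 3 (log2 -0.59), severe 2 or severe 3. miR-301a-3p fell by 0.95 (lost without control 1, control 3, severe 1 or severe 2, adjusted p = 0.0531 to 0.125) and miR-1388-3p by 0.73 on the log2 scale (lost without control 1, severe 1 or severe 2, 0.0650 to 0.181). The other called falls, miR-152-5p, miR-135c-5p, miR-301c-3p, miR-190a-5p and miR-140-3p, were by 0.69 to 0.95 on the log2 scale.

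Of the miRNAs tied to hypoxia in earlier work on fish and mammals, 0 of 10 tested were called higher and 1, miR-21-5p, was called lower (median log2 -0.57). Over all tested miRNAs 5.56% were called higher and 18.1% lower, with a median of -0.28. Rescaled to the listed total 0 of the 10 were called, with a median of -0.17. At an unadjusted p under 0.05 the counts were 0 higher and 5 lower, against 71 of 216 in either direction over all tested. The listed member miR-731-5p was not tested, because it was at 0 in control at 8 h. miR-210-3p held 289, 220 and 255 rpm (averaged) in control and 177, 122.02 and 149 rpm (averaged) in severe hypoxia. The severe libraries were all lower, but the difference was not called (log2 -0.78, SE 0.34, adjusted p = 0.110). miR-210-5p overlapped between groups, at 272, 136 and 204 rpm (averaged) against 164, 187 and 175 rpm (averaged) (log2 -0.13, adjusted p = 0.831). In the same severe treatment miR-210-3p averaged 549.7 rpm after 4 h and 543 rpm after 12 h, and its 8 h level was lower than the mean of those times (log2 -1.88, adjusted p = 7.52e-05). miR-462-5p, whose cluster with miR-731 responds to hypoxia in zebrafish, stood at 8439 ± 2790 rpm in control and 4345 ± 532 rpm in severe hypoxia (log2 -0.92, SE 0.35, adjusted p = 0.0596).

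Hepatocyte miRNAs gave 2 of 7 called lower and 0 higher (median -0.33), which is near the background of 18.1% called lower and a median of -0.28. After rescaling to the listed total 0 of the 7 were called in limma. miR-122-5p held 11135 (averaged), 11273 and 10998 rpm in control and 6186 (averaged), 5884 and 6489 rpm in severe hypoxia. The groups did not overlap (log2 -0.85, SE 0.30, adjusted p = 0.0454). The call ended without any library that measured it, control 2, control 3, severe 2 or severe 3 (log2 -0.78 to -0.92). Control 1 and severe 1 hold averaged values, so leaving them out removed no value of this miRNA. Without severe 1 the log2 difference was unchanged and adjusted p was 0.0506. miR-122-3p did not follow it, at 114 ± 6.24 and 125 ± 1.80 rpm (log2 0.13, adjusted p = 0.792). miR-148-5p fell from 3286 ± 335 to 1691 ± 57.0 rpm (log2 -0.96, adjusted p = 8.96e-04), and was also called after rescaling by the median of ratios but not to the listed total.

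**Figure D3:**
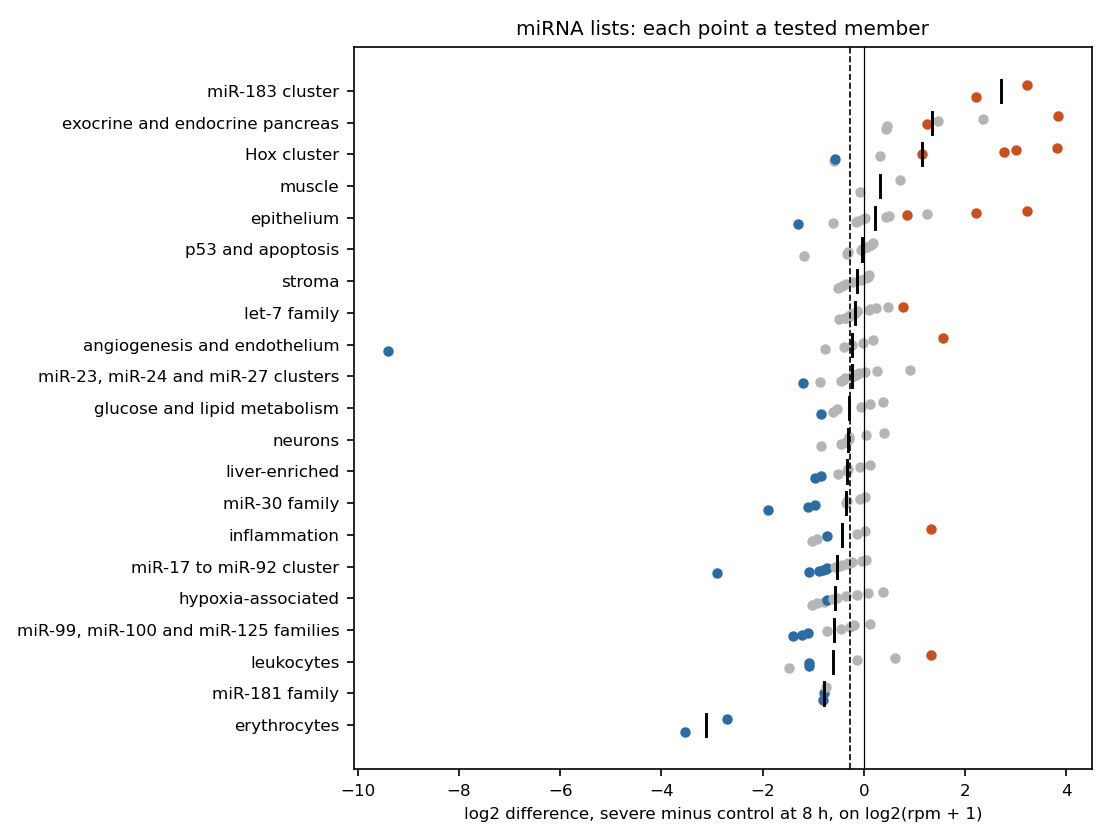
Log2 difference (severe minus control at 8 h, on log2(rpm + 1)) of each tested member of the named miRNA lists, 1 row per list, ordered by list median (black tick). Orange points were called higher, blue called lower, grey not called, and the dashed line is the median of all tested miRNAs, -0.28; points are shifted vertically within a row to separate them.

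Some of the rises are themselves markers of other tissues, so each such list is given whole. Of 7 listed pancreas markers (miR-216, miR-217, miR-375 and miR-7 forms) 6 were tested, all 6 had a positive difference and 2 were called higher (miR-7a-5p and miR-216a-5p). Over all tested miRNAs 56 of 216 had a positive difference and 5.56% were called higher. The untested member miR-7a-3p held 0.61 (averaged), 0.49 and 0.72 rpm in control and was listed at 0 in severe hypoxia. The summed level of the 7 was 185 to 242 rpm in control libraries and 404 to 490 rpm in severe libraries. miR-375-3p, characteristic of islet cells, carried 1 measured value per group, 5.63 rpm in control and 33.1 rpm in severe hypoxia (log2 2.36, adjusted p = 0.211), and miR-217-5p stood at 96.8 (averaged), 96.03 and 97.7 rpm against 135 (averaged), 102.95 and 168 rpm (log2 0.44, adjusted p = 0.593). Of 12 tested epithelial miRNAs 7 had a positive difference, 3 were called higher and 1 lower (background 5.56% and 18.1%). The rises were miR-182-5p, miR-183-5p and miR-200b-3p, and the fall was miR-141-5p at 2.99 ± 0.0212 against 0.615 ± 0.0354 rpm, a call lost without severe 3 (adjusted p = 0.0534) and on the scale of the listed total. Their sum was 2140 to 2370 rpm in control and 2769 to 2887 rpm in severe libraries. Both sums include the rises themselves, and the part of tissue content in the rises was not tested.

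The other lists are set against 5.56% called higher and 18.1% called lower over all tested miRNAs. Of 6 tested leukocyte miRNAs 1 was called higher and 2 lower, the latter being the identical miR-142a-3p and miR-142b-3p, with sums of 2767 to 2843 rpm in control and 2044 to 2793 rpm in severe libraries. The 8 tested neuronal, 8 stromal and 2 muscle miRNAs gave no call in either direction with limma, and at an unadjusted p under 0.05 only miR-153b-3p of the neuronal list was lower. Muscle markers summed to 43.2 to 43.8 rpm in control and 67.5 to 81.0 rpm in severe libraries, and miR-1-3p was listed at 0 in control and at 2.70 rpm in severe hypoxia. Of 17 tested let-7 members let-7i-5p alone was called (median -0.17), and 0 of 8 miRNAs of the p53 and apoptosis list were, at an unadjusted p under 0.05 too. The miR-23, miR-24 and miR-27 clusters had 1 of 13 called lower, miR-23b-5p at 3.01 ± 0.0566 against 0.745 ± 0.219 rpm (lost without severe 3, adjusted p = 0.0607), and 0 called higher. Of 6 glucose and lipid miRNAs miR-122-5p alone was called.

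Some miRNAs were listed at 0 in all libraries of 1 group, 7 in control alone, 12 in severe hypoxia alone and 15 in both, and no difference was tested for them. miR-221-5p was at 0 in the control libraries and carried 1 value, 5104 rpm or 11361 reads of severe library 1, in all severe libraries. It was also at 0 in control at 12 h and in moderate hypoxia at 0 and 8 h, and reached 5545 rpm in moderate hypoxia at 12 h. miR-731-5p, the partner of miR-462, was at 0 in control against 268 rpm from severe library 1. miR-93-3p was at 0 against 225, 153.2 and 189 rpm (averaged). In the other direction miR-181c-5p held 193, 204.6 (averaged) and 216 rpm in control and miR-458-5p 91.4 rpm, both listed at 0 in severe hypoxia. miR-93-3p, miR-181c-5p and miR-458-5p were likewise at 0 in some of the other groups and above 0 in others. A miRNA absent from the liver and an entry absent from the file cannot be told apart here, so no fold is given.

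The 8 h libraries of each treatment were also compared with the neighbouring times. Within severe hypoxia 45 of 216 miRNAs (20.8%) differed at 8 h from the mean of 4 and 12 h, and within control 10 of 213 (4.69%) did, 8 higher (3.76%) and 2 lower (0.939%) at 8 h. In severe hypoxia 15 were higher (6.94%) and 30 lower (13.9%); rescaled to the listed total 30 were higher and 11 lower, and by the median of ratios 16 and 12. Of the 12 miRNAs that rose, 9 were higher in severe hypoxia at 8 h than at 4 and 12 h, and 1, miR-7a-5p, was lower in control at 8 h. miR-10a-5p, for example, averaged 2705.5 rpm after 8 h of severe hypoxia but 104 rpm after 4 h and 144.8 rpm after 12 h (log2 4.46 for 8 h against the mean of the other times, adjusted p = 7.59e-06). Of the 39 that fell, 12 were lower in severe hypoxia at 8 h and 5 were higher in control at 8 h, so for most of them neither side was called. After rescaling to the listed total 10 of the rises and 6 of the falls were called on the severe side. The severe 8 h group was the highest of the 15 groups for 6 of the 10 rises measured in every group, against 4.17% of all tested miRNAs measured in every group. The control 8 h group was the highest for 12 of the 39 falls (30.8%), against 9.90% of that background. These comparisons use the same 8 h libraries as the calls, so the counts are descriptions.

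**Figure D4:**
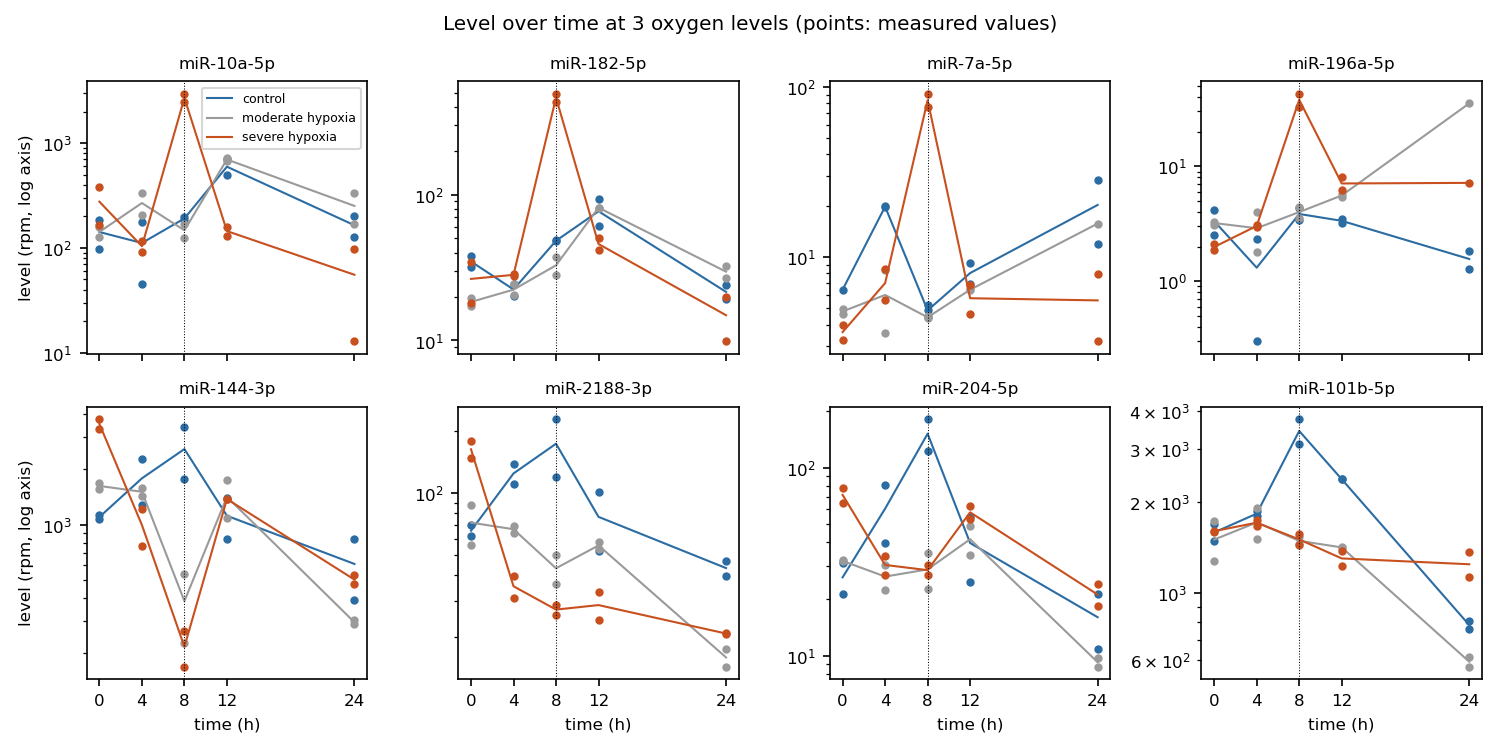
Levels in rpm (log axis) from 0 to 24 h for 4 rises (top) and 4 falls (bottom) in control (blue), moderate (grey) and severe hypoxia (orange); points are measured values, lines join group means and the dotted line marks 8 h. The orange lines peak at 8 h in the top row, and the blue lines peak there in the bottom row.

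The difference between severe hypoxia and control at 8 h was then set against the mean difference at 0, 4, 12 and 24 h. Of 201 miRNAs measured in all 10 groups, 55 (27.4%) differed, 7 toward higher (3.48%) and 48 toward lower values (23.9%). The median log2 value over the 201 was -0.40, and 0.11 after rescaling to the listed total. The 7 included miR-7a-5p (4.90), miR-10a-5p (4.57), miR-182-5p (3.58) and miR-183-5p (2.79, all log2). Among the 12 rises 7 of the 11 that could be tested were called here, and among the 39 falls 32 were. Rescaled to the listed total, 24 miRNAs differed, 16 toward higher and 8 toward lower values, and by the median of ratios 27 did, 11 and 16. Of the rises 9 and of the falls 7 were among the 24. The 8 h difference that gave the calls is part of this test, so these overlaps are descriptions.

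Against moderate hypoxia at 8 h, the severe group differed in 24 of 215 miRNAs (11.2%), 19 higher (8.84%) and 5 lower (2.33%). Rescaled to the listed total the split was 10 higher and 15 lower, and by the median of ratios 11 and 10. Of the 12 rises 10 were also higher than in moderate hypoxia; the exceptions were miR-155-5p, at 15.1 ± 1.41 rpm in moderate hypoxia, and miR-196b-5p, at 3.08 ± 0.785 rpm. The log2 differences were 4.20 for miR-10a-5p (adjusted p = 1.04e-04), 3.96 for miR-7a-5p and 3.79 for miR-182-5p. Of the 39 falls 5 were also lower than in moderate hypoxia, among them miR-126a-3p (-8.72), miR-19d-5p (-1.98) and miR-190a-3p (-1.19). Rescaled to the listed total 8 of the rises were higher and 11 of the falls lower than in moderate hypoxia. By the median of ratios these counts were 8 and 9. These overlaps use the same severe 8 h libraries as the calls, so they are descriptions. miR-126b-3p was higher than in moderate hypoxia by 10.4, where it was nearly absent.

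Moderate hypoxia against the same control libraries gave 73 called of 215 (34%), 1 higher (0.465%) and 72 lower (33.5%). The listed sum in moderate hypoxia was 441080 ± 34307 rpm (n = 3), lower than in control by 0.85 on the log2 scale of the means. Rescaled to the listed total 11 were called, 7 higher and 4 lower, and by the median of ratios 16, 4 higher and 12 lower. The controls are shared, so the values are only set side by side, as deposited. miR-144-3p was at -3.53 in severe and -2.80 in moderate hypoxia, miR-204-5p at -2.35 and -2.36, miR-101b-5p at -1.19 and -1.20 and miR-26a-5p at -0.81 and -1.16. miR-10a-5p was at 3.81 and -0.39, miR-182-5p at 3.23 and -0.56 and miR-7a-5p at 3.85 and -0.11. Rescaled to the listed total these 3 were at 4.31 and 0.48, 3.72 and 0.30, and 4.26 and 0.61, while miR-101b-5p was at -0.67 and -0.31 and miR-26a-5p at -0.30 and -0.26.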

How the data were processed

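Size-selected small RNA from liver total RNA was sequenced on an Illumina HiSeq instrument, per the labels' protocols. For the aligner, miRNA reference and normalisation nothing is stated in the labels or files. The deposited values fit RPM, reads scaled to library size; the denominator is unknown. The series' design text describes another fish and treatment, and the sample labels were followed.

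The members and lists were chosen with earlier results of these data known. A value equal to the mean of the other 2 of its group (within 0.0101 rpm or 0.1%) was set to missing, as was a group at 0 in all 3 libraries. Identical triples kept 1 value, given to the library whose step it is a whole multiple of; at 8 h all 34 fell to exactly 1 library. Values were modelled as log2(rpm + 1) for the 228 miRNAs (216 testable) averaging 1 rpm or more across the 45 libraries, in 1 linear model of 15 groups with moderated variances and a trend on abundance (limma 3.58.1, R 4.3.3), tested on simulated data. Fold changes on this scale understate changes of scarce miRNAs. p-values were two-sided with Benjamini-Hochberg adjustment, called under 0.05. Count models were not used because averaged values are not reads. Most groups hold 2 measured values; the median residual degrees of freedom were 15. Which value was replaced by a mean, and why, is not known, so the spread may be understated; standard errors were also widened 2.5-fold.

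Named were all miRNAs called higher and the 20 largest called falls with at least 10 rpm over the 6 libraries, the 5 most abundant, both arms of miR-210, miR-462, miR-731 and miR-122, called list members, miRNAs at 0 in 1 group and at least 10 rpm in the other, and the leading 5 each way of the other contrasts. miR-10b-5p, miR-96-5p, miR-221-3p, miR-126a-5p, miR-142a-5p, miR-375-3p, miR-217-5p, miR-1-3p, miR-153b-3p and the last 5 falls (miR-152-5p to miR-140-3p) were added after their values were seen. Alternatives were other scalings, pseudocounts, filters, libraries in the fit, treatment of averaged values and zeros, the replicate number as a block and leaving out each library. Sequences and genome positions were not used here. Depth implied by the steps covers counting error only.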

Additional observations from a re-analysis of the deposited data

Results flagged for a closer look

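The difference between severe hypoxia and control at 8 h departed from the mean difference at the other 4 times for 55 of 201 miRNAs by the interaction test in limma (Benjamini-Hochberg adjusted p under 0.05), which brings the following log2 values to attention. A positive value means that severe hypoxia stood higher against control at 8 h than at the other times. All values are on the deposited scale, where 7 miRNAs departed toward higher and 48 toward lower values. On that scale the median over the 201 was -0.40, so the smaller negative values lie near it. Rescaled to the listed total 24 departed, 16 toward higher and 8 toward lower values. Of the falls called at 8 h, 7 were among these 24, against 32 on the deposited scale. The 8 h difference is itself part of the test, so this overlap is a description.

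Above 0 were miR-7a-5p (4.90), miR-10a-5p (4.57), miR-182-5p (3.58), miR-183-5p (2.79), miR-196a-5p (2.25), miR-222a-3p (1.37) and miR-200b-3p (0.87).

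Of the endothelial miR-126 forms, miR-126a-3p was at -9.68 and miR-126b-3p at -7.53; the latter was nearly absent in control at 4, 12 and 24 h. Red cell miR-144-3p was at -3.79 and miR-144-5p at -2.51. Next came miR-204-5p (-2.75), miR-190a-3p (-1.92), miR-2188-5p (-1.91), miR-460-3p (-1.91), miR-2188-3p (-1.85) and miR-19d-5p (-1.68).

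miR-210-3p, which was not called at 8 h itself, was at -1.57. The values for the families were -1.44 for miR-100-3p, -1.16 for miR-99-5p, -1.05 for miR-125b-3p, -1.35 for miR-30a-3p, -0.94 for miR-30a-5p and -0.75 for miR-30e-5p. Hepatocyte miRNAs were at -1.05 for miR-122-5p, -0.98 for miR-122-3p and -1.01 for miR-148-5p. At 8 h miR-122-3p itself was not called, at 114 rpm in control and 125 rpm in severe hypoxia. At 12 h it averaged 113 rpm in control and 609 rpm in severe hypoxia.

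The other named miRNAs were miR-141-5p (-1.25), miR-101b-5p (-1.12), miR-181a-5p (-1.09), miR-142a-3p and miR-142b-3p (-1.05 each), miR-26a-5p (-1.02), miR-19c-3p (-0.98), miR-23b-5p (-0.97), miR-1388-3p (-0.72), miR-21-5p (-0.70) and miR-10c-5p (-0.67). Departures of miRNAs outside the named ones are not listed.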

How the results depend on the processing

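Of 216 miRNAs, 51 were called; keeping all 3 deposited values gave 105, rescaling to the listed total 32, rescaling by the median of ratios 33, and standard errors widened 2.5-fold 3 (miR-7a-5p, miR-182-5p and miR-126a-3p). Leaving out 1 library gave 34 to 47, lowest without control 3. For the departure of 8 h from other times the counts were 116, 24, 27 and 3 under the same settings (55 as reported) and 36 to 47 without 1 library. For severe against moderate hypoxia they were 111 with all values kept, 44 with groups at 0 kept as 0, 4 with widened errors, and 12 to 25 without 1 library, being 12 without severe 1 and 13 without severe 2. For the arm ratio (2 as reported) they were 27 with all values kept, 4 with the replicate number as a block and 1 with a pseudocount of 10. With widened errors 1 was called, and without 1 library 1 to 3 were. For severe hypoxia at 8 h against 4 and 12 h the median of ratios gave 28. For moderate hypoxia against control (73) rescaling gave 11 and 16. These rescalings of the last 2 comparisons and of control at 8 h against 4 and 12 h were chosen after seeing the data. Other counts of calls were within 1.5 times, though the split of higher against lower calls moved with the scale. The causes were not tested, except that keeping averaged values adds values with no spread of their own.

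Uncalled miRNAs changed sign. Under rescaling to the listed total, by the median of ratios and in some cases without 1 library, miR-192-5p was at 0.35, 0.21, 0.13 (without control 1) and 0.04 (without severe 1), with -0.29 to 0.13 over the libraries left out. let-7a-5p was at 0.26, 0.17 and 0.012 (without severe 3; -0.33 to 0.012 over the libraries), miR-22a-3p at 0.17 and 0.053, and miR-210-5p at 0.30, 0.18 and 0.37 (without control 1; -0.63 to 0.37). Under rescaling to the listed total 19 named calls were lost.

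Deviations of same-numbered severe and control libraries correlated at 0.08, -0.09 and -0.08, and those of differently numbered ones at -0.16 to 0.22. Most triples hold only 2 measured values, so these correlations cannot decide whether the replicate numbers pair the libraries. With the replicate number as a block 50 miRNAs were called, 56 departed from other times, 20 differed from moderate hypoxia and 4 arm ratios were called.

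With 1 or 2 measured values in most groups and single-digit reads for the scarcest miRNAs, small differences were not detectable at this depth.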
